A study of Mus musculus with 4 samples.

Results

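The genes described here are the nuclear genes of respiratory complexes II to V in hearts of mice at postnatal day 7 (P7). Autosomal protein-coding genes were taken whose symbols name a succinate dehydrogenase subunit or assembly factor (Sdh), a ubiquinol-cytochrome c reductase subunit (Uqcr), cytochrome c1 or cytochrome c (Cyc1, Cycs), a numbered cytochrome c oxidase gene (Cox) or an ATP synthase gene (Atp5). This gave 61 of the 24454 genes in the count table. A further match, Cox7b, lies on the X chromosome and was left out by the autosome rule. The count table held 0 mitochondrially encoded genes, so the subunits made inside the organelle are not described.

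RNA-seq was made as 2 libraries of Ctrl heart (WH7 and WH8) and 2 of miR-128OE heart (WH9 and WH10), with 8096870 to 14359838 counts per library. The miR-128OE mice carried α-MHC-tTA together with miR-128TetRE, a tetO-driven miR-128 gene knocked into Rosa26, on a C57BL/6 background. The α-MHC promoter restricts the transactivator to cardiomyocytes, and doxycycline in the diet holds the transgene off. When doxycycline was withdrawn for the hearts sequenced is not given in the sources used here, so the length of induction is not known. Ctrl mice carried miR-128TetRE without the transactivator, so both groups had the knock-in allele and only miR-128OE mice had tTA. Nothing in the labels says that the libraries of a group came from separate animals, and p-values then measure only the spread between these libraries, which may be technical. Sex coincided with condition: Xist was at 1130 and 1361 CPM in Ctrl (CPM is the count of a gene after scaling each library by its size) and at 7.91 and 9.43 CPM in miR-128OE libraries, while Ddx3y on the Y chromosome was at 1.01 and 0.840 CPM against 121 and 126 CPM. Sex and genotype cannot be told apart in any value below.

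Complex II (succinate dehydrogenase) passes electrons from succinate to ubiquinone, complex III moves them from ubiquinol to cytochrome c, and complex IV (cytochrome c oxidase) hands them to oxygen. The ATP synthase, complex V, uses the proton gradient that complexes III and IV help to build. Cardiac muscle is rich in these enzymes, and several complex IV subunits exist in a heart and skeletal muscle form beside a form found in most tissues.

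MiR-128-3p, the overexpressed microRNA, is shown here because its seed defines the sites searched for in the members. Its mature sequence in RefSeq (GRCm38.p6) is encoded at chr1:128202404-128202424 (plus strand, Mir128-1) and chr9:112118644-112118664 (minus strand, Mir128-2), with the seed, bases 2 to 8, in capitals.
miR-128-3p: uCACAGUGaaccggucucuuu
Matches to the seed, CACTGTG (7mer-m8) or ACTGTGA (7mer-A1), were counted on the sense strand of GENCODE 3′ untranslated regions, an 8mer being both at once. Of the 59 tested members, 9 held a match, or 15.3%, against 31.0% of the 13463 tested genes with an annotated 3′ untranslated region. The tested members' untranslated regions were shorter, with a median of 272 bases against 1199 bases. There were 13 sites, of which 1 was an 8mer, and 9 of them, in 6 genes, lay inside the RefSeq bounds of the gene as well. All sites of Atp5g1, Cox19 and Sdhaf3 lay outside these bounds.

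Sdha, which codes for the flavoprotein that oxidizes succinate, held the 8mer and a 7mer-m8 site in its 3′ untranslated region. Uqcrq, a small complex III subunit, held a 7mer-m8 site, shown here, and a 7mer-A1 site. They are shown as 30 bases of the GENCODE transcript around the match (GRCm38 coordinates, minus strand), with the matched bases in capitals.
Sdha 8mer, match at chr13:74322348-74322355: tgtctacttctCACTGTGAatgtaactagt
Sdha 7mer-m8, match at chr13:74322446-74322452: ggaagacagccCACTGTGggcaccatcatt
Uqcrq 7mer-m8, match at chr11:53428909-53428915: agacaaggtctCACTGTGtgtccctgactg
These matches are a description of the letters and not shown to be bound. Of the 9 members with a match, 6 were higher in miR-128OE hearts, beside 49 of all 59 tested members and 16.5% of all genes tested. The median log2 fold change of the 9 was 0.60, beside 0.61 for the tested members without a match. Over all genes tested the medians with and without a match were −0.014 and 0.001.

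RNAs of the 4 complexes were higher in miR-128OE than in Ctrl hearts. Of the 59 members that passed the filter on low counts, 49 were higher at an adjusted p under 0.05 in the quasi-likelihood test of edgeR, adjusted by Benjamini-Hochberg over 14266 genes. Every adjusted p below without another tool's name comes from this fit. SE is the standard error of a log2 fold change, derived as its absolute value over the square root of the test's F statistic. Over all genes tested, 16.5% were higher and 15.0% were lower. None of the members, 0 of 59, was lower, and the count lower was also 0 at an unadjusted p under 0.05 and 0 by DESeq2. In 56 of 59 both miR-128OE libraries lay above both Ctrl libraries, as they did for 33.7% of all genes tested. In 1, Cox6b2, both lay below, and in 2, Cox4i2 and Cox15, the groups overlapped. Over all genes tested, 4902 of 14266 lay below and 4553 overlapped. The median log2 fold change was 0.61 with an interquartile range of 0.47 to 0.75, against a median of −0.01 for all genes tested. In bulk tissue, a change in the share of cells that carry an RNA and a change in RNA per cell cannot be told apart.

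**Figure D1:**
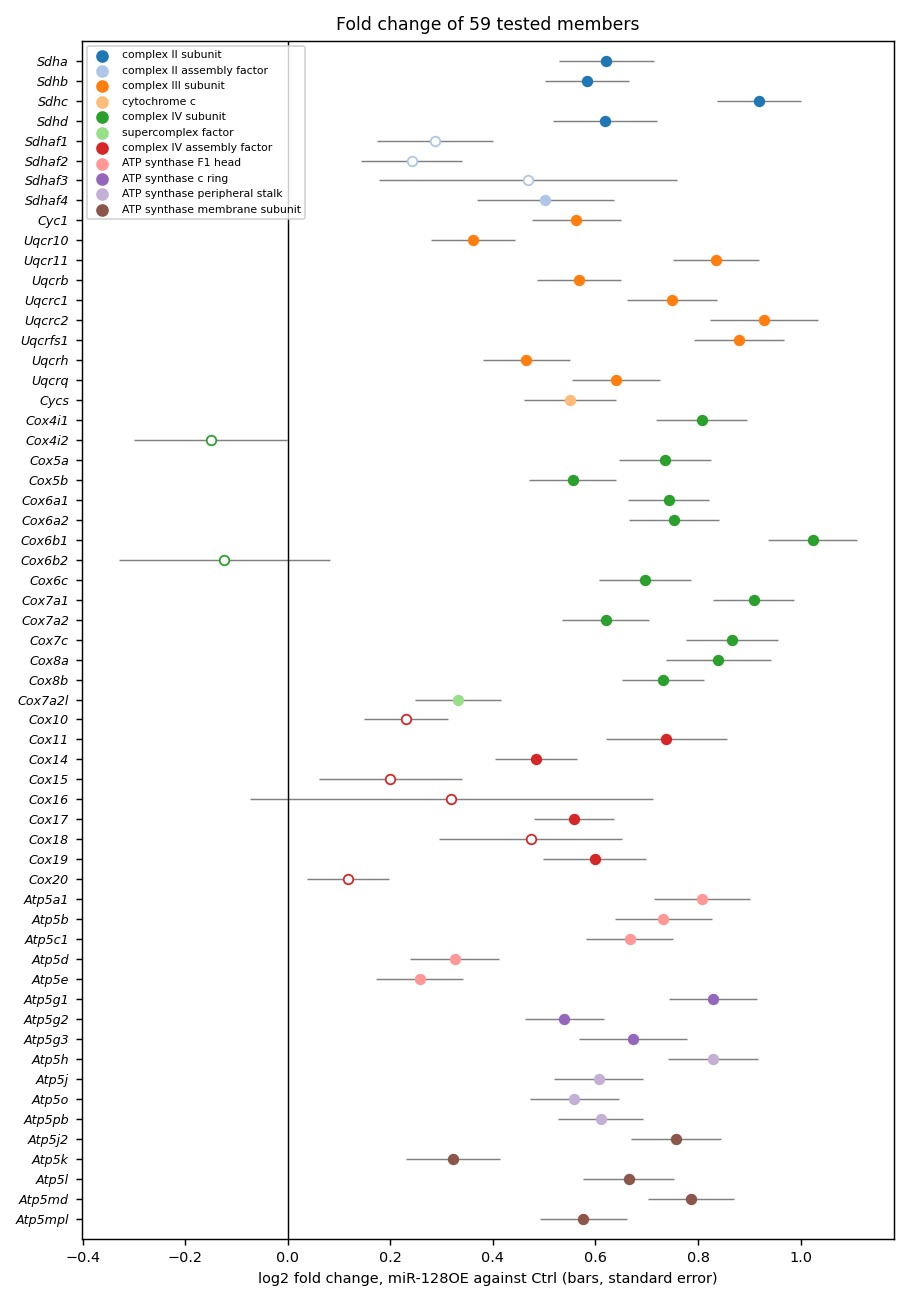
Log2 fold change, miR-128OE against Ctrl, for the 59 tested members (x axis), one row per gene, coloured by role. Bars are standard errors derived from the F statistic of the test, filled points passed the adjusted p threshold of 0.05 and open points did not. Points run from −0.15 (Cox4i2) to 1.02 (Cox6b1), and the 10 open points are 2 complex IV subunits and 8 assembly factors.

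Together the members took 2.63% (WH7) and 2.77% (WH8) of all Ctrl counts, beside 4.09% (WH9) and 3.96% (WH10) of the miR-128OE counts. The share was 1.49 times as large in miR-128OE hearts (2.70% ± 0.10 against 4.03% ± 0.10, SD, n = 2 libraries each). The groups did not overlap, and the exact two-sided permutation test gave p = 0.333, the smallest that 2 against 2 libraries allow. By complex, the ratio of mean shares was 1.47 for complex II, 1.47 for complex III, 1.37 for cytochrome c, 1.55 for complex IV and 1.48 for the ATP synthase. The ATP synthase took the largest share of counts, 1.34% ± 0.05 in Ctrl and 1.98% ± 0.05 in miR-128OE libraries.

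**Figure D2:**
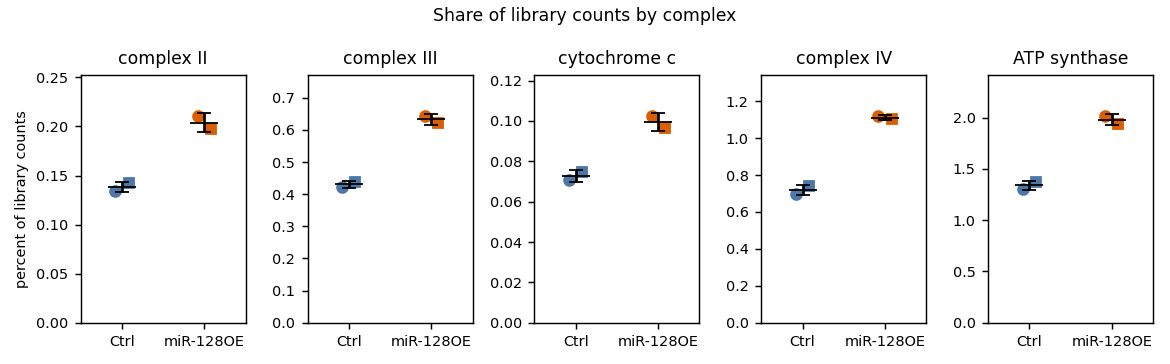
Percent of all counts of a library (y axis) that fell on each complex, in Ctrl (blue) and miR-128OE (orange) libraries; circles are WH7 and WH9, squares WH8 and WH10, and black bars are the mean and SD of 2 libraries. In each panel both miR-128OE libraries lie above both Ctrl libraries, for complex IV at 1.12% and 1.10% against 0.699% and 0.739%.

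All 4 complex II subunits were higher, with log2 fold changes between 0.58 and 0.92. Sdha stood at 411 and 443 CPM in Ctrl and at 691 and 622 CPM in miR-128OE libraries. Its log2 fold change was 0.62 (SE 0.09, adjusted p = 0.00124), with no overlap between the groups. Sdhb, the iron-sulfur subunit, was at 312 and 334 CPM against 492 and 476 CPM, a log2 fold change of 0.58 (SE 0.08, adjusted p = 0.000983). Sdhc, one of the 2 membrane anchors, was at 268 and 264 CPM in Ctrl and at 519 and 487 CPM in miR-128OE hearts. It had the smallest p-value of the complex (log2 fold change 0.92, SE 0.08, adjusted p = 0.000107). The other anchor, Sdhd, had a log2 fold change of 0.62.

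Of the 4 complex II assembly factors, 1 passed the threshold. Sdhaf4, which helps to join the flavoprotein to the iron-sulfur subunit, was at 17.2 and 18.8 CPM in Ctrl and at 27.3 and 23.6 CPM in miR-128OE libraries (log2 fold change 0.50, SE 0.13, adjusted p = 0.0191). That call was lost with DESeq2, with a correction for GC content and length, and without WH9 (adjusted p = 0.0666, 0.0811 and 0.173). The other 3 had log2 fold changes of 0.29 (Sdhaf1, adjusted p = 0.0809), 0.24 (Sdhaf2, adjusted p = 0.0888) and 0.47 (Sdhaf3, adjusted p = 0.25). For all 4 factors both miR-128OE libraries lay above both Ctrl libraries.

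Each of the 9 complex III genes was higher, between 0.36 for Uqcr10 and 0.93 for Uqcrc2 on the log2 scale. Among the catalytic subunits, Cyc1 (cytochrome c1) was at 518 and 558 CPM in Ctrl and at 811 and 778 CPM in miR-128OE libraries, a log2 fold change of 0.56 (SE 0.09, adjusted p = 0.00147). Uqcrfs1, the Rieske iron-sulfur protein, was at 346 and 352 CPM against 675 and 611 CPM. Its log2 fold change was 0.88 (SE 0.09, adjusted p = 0.000181), and the groups stood apart for both genes. The core proteins Uqcrc1 and Uqcrc2 had log2 fold changes of 0.75 and 0.93. Among the small subunits, Uqcr11 had the lowest p-value of the complex, with 473 and 469 CPM in Ctrl and 855 and 826 CPM in miR-128OE hearts (log2 fold change 0.84, SE 0.08, adjusted p = 0.00018). Uqcr10 (0.36) and the hinge protein Uqcrh (0.47) had the smallest log2 fold changes. Uqcr10 lost its call with the GC and length correction and without either miR-128OE library (adjusted p = 0.208, 0.125 and 0.0671), and Uqcrh without WH9 (adjusted p = 0.0611).

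Cycs, the mobile electron carrier cytochrome c, was at 680 and 728 CPM in Ctrl and at 1072 and 988 CPM in miR-128OE hearts. The groups did not overlap, and the log2 fold change was 0.55 (SE 0.09, adjusted p = 0.002). Its coding sequence has 4 near-identical copies elsewhere in the annotation, so its reads may be shared with them.

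Of the 14 complex IV subunits tested, 12 were higher and 2, Cox4i2 and Cox6b2, did not pass the threshold. Complex IV held the gene with the largest fold change of the members, Cox6b1, a subunit on the intermembrane side. It was at 605 and 648 CPM in Ctrl and at 1290 and 1255 CPM in miR-128OE libraries (log2 fold change 1.02, SE 0.09, adjusted p = 8.81e-05). Cox5a, Cox5b, Cox6c and Cox7c had log2 fold changes of 0.74, 0.56, 0.70 and 0.87. The testis-type genes Cox7b2 and Cox8c were not tested. Cox7b2 had 1 count in WH10 and 0 in the other libraries, and Cox8c had 0 counts in all 4.

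Tissue forms of the same subunit were compared by level per length, as CPM per kilobase of exon, and by the share of one form in its family. In the Cox4 pair, Cox4i1 was at 1309 and 1384 CPM in Ctrl and at 2404 and 2307 CPM in miR-128OE hearts (log2 fold change 0.81, SE 0.09, adjusted p = 0.000284). Cox4i2, a form known from lung, was at 17.5 and 18.4 CPM against 17.8 and 14.5 CPM (log2 fold change −0.15, SE 0.15, adjusted p = 0.476). The groups overlapped for Cox4i2 and not for Cox4i1. Per kilobase of exon, Cox4i2 made up 2.56% and 2.54% of the pair in Ctrl and 1.44% and 1.22% in miR-128OE libraries. The Cox6b pair was alike in its order, though here the groups did not overlap for either gene. Cox6b2, a testis form, was at 7.07 and 7.20 CPM in Ctrl and at 6.81 and 6.29 CPM in miR-128OE libraries (log2 fold change −0.12, SE 0.21, adjusted p = 0.679). Its share of the pair per kilobase of exon was 0.741% and 0.706% in Ctrl, against 0.336% and 0.319%. Both shares were lower in miR-128OE libraries without overlap (exact permutation p = 0.333, the smallest that 4 libraries allow).

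**Figure D3:**
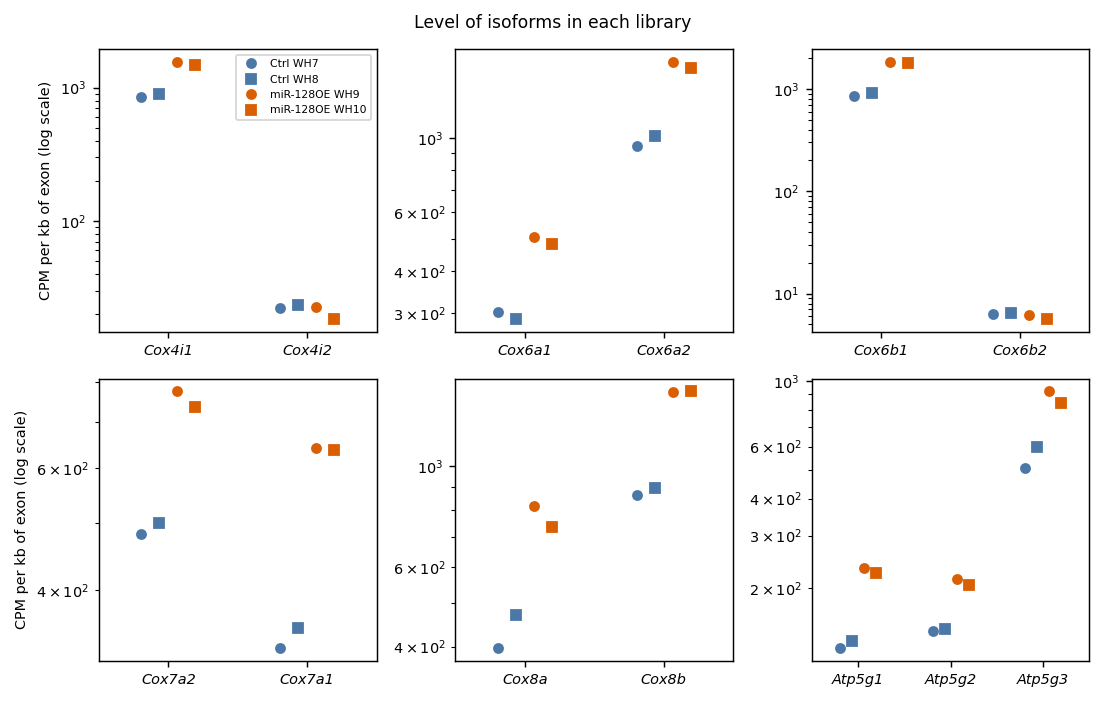
Level of each form in CPM per kilobase of exon (y axis, log scale) in the 4 libraries, by family. Cox4i2 and Cox6b2 lie far below their partners and do not rise with them, while both forms of Cox6a, Cox7a and Cox8 and the 3 Atp5g genes are higher in WH9 and WH10.

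The heart and muscle forms Cox6a2, Cox7a1 and Cox8b were higher, and so were their partners. Cox6a2 was at 642 and 691 CPM in Ctrl and at 1146 and 1102 CPM in miR-128OE libraries (log2 fold change 0.75, SE 0.09, adjusted p = 0.000382). Cox6a1, its partner in other tissues, was at 212 and 202 CPM against 355 and 338 CPM (log2 fold change 0.74, SE 0.08, adjusted p = 0.000236). The 2 fold changes differed by 0.01 on the log2 scale, and the share of Cox6a2 overlapped between the groups at 76.8% ± 1.5 in Ctrl and 77.0% ± 0.12 in miR-128OE hearts (SD, n = 2; exact permutation p = 1).

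Cox7a1 was at 177 and 189 CPM in Ctrl and at 343 and 342 CPM in miR-128OE libraries (log2 fold change 0.91, SE 0.08, adjusted p = 9.65e-05). Cox7a2 was at 456 and 473 CPM against 732 and 695 CPM (log2 fold change 0.62, SE 0.08, adjusted p = 0.000803). Of the summed pair per kilobase of exon, the muscle form made up 40.6% and 41.3% in Ctrl and 45.3% and 46.5% in miR-128OE libraries. Its share was higher without overlap (exact permutation p = 0.333). Per kilobase of coding sequence the shares were lower in both groups, 25.8% ± 0.41 and 29.8% ± 0.70 (SD, n = 2).

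Cox8b was at 310 and 323 CPM in Ctrl and at 524 and 527 CPM in miR-128OE hearts (log2 fold change 0.73, SE 0.08, adjusted p = 0.000284). Cox8a was at 246 and 291 CPM against 505 and 455 CPM (log2 fold change 0.84, SE 0.10, adjusted p = 0.00048). The share of Cox8b overlapped between the groups, at 67.0% ± 2.0 in Ctrl and 65.3% ± 1.8 in miR-128OE libraries (SD, n = 2; exact permutation p = 0.667).

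**Figure D4:**
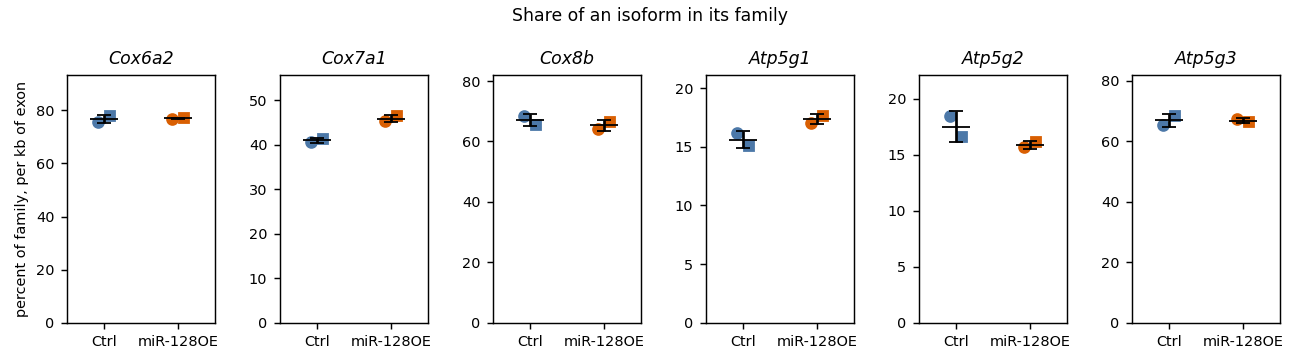
Share of one form in its family per kilobase of exon (y axis, percent), in Ctrl (blue) and miR-128OE (orange) libraries; circles are WH7 and WH9, squares WH8 and WH10, and black bars are the mean and SD of 2 libraries. The groups stand apart for Cox7a1, Atp5g1 and Atp5g2 and overlap for Cox6a2, Cox8b and Atp5g3.

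Cox7a2l, a Cox7a relative that takes part in joining complexes III and IV, was at 291 and 313 CPM in Ctrl and at 393 and 367 CPM in miR-128OE libraries (log2 fold change 0.33, SE 0.08, adjusted p = 0.0153). Without WH9, without WH10 and with the GC and length correction its adjusted p was 0.170, 0.0628 and 0.102. Of the 9 complex IV assembly factors, 4 were higher. Cox17, a copper chaperone, was at 106 and 108 CPM in Ctrl and at 162 and 153 CPM in miR-128OE hearts (log2 fold change 0.56, SE 0.08, adjusted p = 0.000942). Cox11, which also acts in copper delivery, Cox14 and Cox19 had log2 fold changes of 0.74, 0.48 and 0.60.

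The 5 factors that did not pass the threshold were Cox10 (log2 fold change 0.23, adjusted p = 0.0583) and Cox15 (0.20, adjusted p = 0.303), which make heme A, Cox18 (0.47, adjusted p = 0.0708), Cox20 (0.12, adjusted p = 0.298) and Cox16 (0.32, adjusted p = 0.57). Cox16 had 9 to 26 counts per library. Only Cox15 overlapped between the groups among these factors, at 26.3 and 34.3 CPM in Ctrl and 36.2 and 32.8 CPM in miR-128OE libraries. Over complexes II and IV, 5 of 13 assembly factors were higher with a median log2 fold change of 0.47, and 16 of 18 tested subunits were higher with a median of 0.73. The difference between these lists was not tested, and the assembly factors had lower counts.

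All 17 ATP synthase genes were higher, with a median log2 fold change of 0.66. In the F1 head, the catalytic part, Atp5a1 was at 1613 and 1726 CPM in Ctrl and at 3051 and 2796 CPM in miR-128OE libraries (log2 fold change 0.81, SE 0.09, adjusted p = 0.000375). Atp5b, the catalytic beta subunit, had the highest CPM of all members, 2353 and 2555 CPM against 4234 and 3917 CPM (log2 fold change 0.73, SE 0.09, adjusted p = 0.000625). Atp5c1, the gamma subunit of the rotor, had a log2 fold change of 0.67. The delta and epsilon subunits, also part of the rotor, had the smallest fold changes of the 17 ATP synthase members, with Atp5k between them. Atp5d was at 704 and 652 CPM in Ctrl and at 858 and 841 CPM in miR-128OE hearts, and Atp5e at 662 and 623 CPM against 756 and 781 CPM. Their log2 fold changes were 0.33 (adjusted p = 0.0189) and 0.26 (adjusted p = 0.0448), and the groups did not overlap. Atp5e was past the threshold in 7 and Atp5d in 10 of 14 alternative analyses. With library totals in place of normalization factors, for instance, their adjusted p was 0.172 and 0.064.

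The c ring, which turns as protons pass, is built from 1 mature protein made by 3 genes. Atp5g1 was at 616 and 648 CPM in Ctrl and at 1145 and 1101 CPM in miR-128OE libraries (log2 fold change 0.83, SE 0.09, adjusted p = 0.000216). Atp5g2 was at 240 and 243 CPM against 359 and 344 CPM (log2 fold change 0.54, SE 0.08, adjusted p = 0.00106). Atp5g3 was at 1108 and 1306 CPM against 2010 and 1838 CPM (log2 fold change 0.67, SE 0.11, adjusted p = 0.00158). All 3 rose without overlap. Per kilobase of exon, Atp5g3 made up 66.9% ± 2.1 of the family in Ctrl and 66.8% ± 0.76 in miR-128OE libraries (SD, n = 2; exact permutation p = 1). Atp5g1 made up 16.1% and 15.1% in Ctrl against 17.0% and 17.6%, and Atp5g2 made up 18.5% and 16.6% against 15.6% and 16.1%, each with exact permutation p = 0.333. The order of Atp5g1 and Atp5g2 depended on the length used, since Atp5g1 made up 31.3% ± 1.3 and Atp5g2 11.1% ± 0.80 of the family in Ctrl per kilobase of coding sequence.

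In the peripheral stalk, which holds the head still, Atp5h had the smallest p-value. It was at 802 and 850 CPM in Ctrl and at 1501 and 1432 CPM in miR-128OE hearts (log2 fold change 0.83, SE 0.09, adjusted p = 0.000236). The other stalk genes, Atp5j, Atp5o (the oligomycin sensitivity protein) and Atp5pb, had log2 fold changes of 0.61, 0.56 and 0.61. Among the small membrane subunits, Atp5md was at 248 and 268 CPM against 455 and 434 CPM (log2 fold change 0.79, SE 0.08, adjusted p = 0.000243). Atp5k, which takes part in holding ATP synthase dimers together, was at 405 and 462 CPM in Ctrl and at 551 and 533 CPM in miR-128OE libraries. Its log2 fold change was 0.32 (adjusted p = 0.0252), and the call was lost in 4 of 14 alternative analyses, with adjusted p up to 0.446. Atp5j2, Atp5l and Atp5mpl had log2 fold changes of 0.76, 0.66 and 0.58.

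Of the 61 members, 19 had at least 1 other annotated gene with 95% identity over 50% of the coding sequence, most of them processed pseudogenes, and Atp5l had 8. How reads matching several places were counted is not given in the sources used here, so the values of these genes are uncertain.

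Genes of the same complexes that the symbols do not reach were read from a separate list of 26 assembly and accessory factors. Of 24 tested, 13 were higher and 1 was lower, and their median was 0.26 on the log2 scale. The largest log2 fold changes of the list were 0.82 for Higd2a, a supercomplex factor, and 0.80 for Ndufa4, a complex IV subunit despite its name. Lyrm7, which helps to insert the Rieske protein Uqcrfs1 into complex III, was the 1 lower gene, at 10.4 and 13.2 CPM in Ctrl and at 4.04 and 4.64 CPM in miR-128OE hearts (log2 fold change −1.42, SE 0.22, adjusted p = 0.0014). Among autosomal genes with symbols starting with Nduf, 33 of 43 tested were higher, with a median of 0.50. This list stands for complex I by symbol alone, and Ndufa4 is counted in it as well. These lists were not tested against the members.

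Marker lists were read for the tissue and other cell types. Counts of markers called higher or lower stand beside 16.5% and 15.0% of all genes tested. All 10 cardiomyocyte markers passed the filter, as did all 8 fibroblast, all 8 endothelial and all 6 leukocyte markers. The cardiomyocyte markers summed to 51538 and 56493 CPM in Ctrl and to 64523 and 63688 CPM in miR-128OE libraries, with 4 higher and 2 lower. The higher ones were Actn2, Myl3, Pln and Myh6, with log2 fold changes of 0.76, 0.64, 0.59 and 0.33, and the lower ones were Ttn (−0.34) and Ryr2 (−0.40). Of 7 brown fat markers tested, 3 were higher: Ucp1, Adipoq and Cidea, with log2 fold changes of 2.69, 1.14 and 0.51. In 5 of the 7 both miR-128OE libraries lay above both Ctrl libraries, as for 33.7% of all genes tested. The groups overlapped for 2, Fabp4 and Cidec. Ucp1, which defines brown fat, was at 4.35 and 0.360 CPM in Ctrl and at 21.3 and 13.5 CPM in miR-128OE libraries, while the summed list was at 1581 to 1651 CPM in Ctrl and 1562 to 1697 CPM in miR-128OE libraries, most of it Fabp4. Cox7a1 and Cox8b are also made in brown fat. The 10 skeletal muscle markers summed to 4.86 to 6.29 CPM in every library, and Myod1 was at 0 counts in all 4. Fibroblast markers summed to 6464 to 9950 CPM in Ctrl and 8764 to 9497 CPM in miR-128OE libraries with 1 of 8 higher, and endothelial markers to 1851 and 1852 CPM against 1911 and 1851 CPM with 2 of 8 higher and 2 lower. None of 6 leukocyte markers passed the threshold. Of 6 erythroid markers 2 were tested. Alas2, on the X chromosome, was higher (log2 fold change 1.05), and Slc4a1 did not pass the threshold (0.21, adjusted p = 0.521). The 4 globin genes were listed at 0. The part of these cell types in the members' values was not tested.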

How the data were processed

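Total RNA of P7 hearts was sequenced as 4 libraries. Per the labels and the study's methods, the authors aligned reads to mm10 with TopHat and deposited raw counts per gene under Entrez numbers. Strand, gene models and treatment of multi-mapped reads are not given in the sources used here. Symbols matched for 24374 of 24454 genes. Members and lists were chosen with earlier results of these data known.

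Genes were filtered with filterByExpr of edgeR 4.0.16 (minimum count 10, minimum total 15), scaled by TMM and tested by quasi-likelihood, miR-128OE against Ctrl, at an adjusted p threshold of 0.05 over 14266 genes. CPM values use TMM-scaled library sizes. DESeq2 1.42.0, other scalings, filters, tests, a GC and length correction and leaving out each library were alternatives. Shares were compared by two-sided exact permutation over libraries. Coordinates of microRNAs and gene bounds are RefSeq (GRCm38.p6). Site positions and sequences, lengths, untranslated regions and copies (BLAST 2.17.0+) use GENCODE vM21. Replicates differed by more than sampling noise (chi-square per degree of freedom 11.7 for WH7 and WH8, 5.55 for WH9 and WH10). Members were named with full values when in an isoform family, catalytic, lowest in p within their class, or past the threshold against most members. Those not past it were named with their values, and other members by fold change, chosen after their values were seen.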

Additional observations from a re-analysis of the deposited data

How the results depend on the processing

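Under 14 alternative fits, the number of members higher in miR-128OE hearts stayed between 42 and 51, beside 49, and the number lower was 0 in each. Leaving out 1 library gave 42 to 51. With a fold of at least 1.5 also required, 32 were higher. The GC and length correction gave 44 higher, and the members' median log2 fold change was then 0.55 instead of 0.61. Median exon length was 1908 bases for tested members and 4493.5 bases for all genes tested. Of the 49 higher members, 42 passed in every fit and 7 lost the call in at least 1 of them (Sdhaf4, Uqcr10, Uqcrh, Cox7a2l, Atp5d, Atp5e and Atp5k), and 4 of the members not past the threshold (Sdhaf2, Cox10, Cox15 and Cox18) passed it in 1 to 3 fits. The cause was not tested. Library totals in place of TMM shifted the all-gene median from −0.01 to −0.11 on the log2 scale and the members' median from 0.61 to 0.51, with 1611 genes higher and 2948 lower over the table instead of 2347 and 2143. The members' share of counts was 1.33 percentage points higher in miR-128OE libraries, and 1.48 points without the 10 most abundant genes of each library. The difference in the share of Cox4i2 was −0.63 by raw counts and −0.77 by coding length, that of Cox6b2 −0.62 by raw counts, that of Cox7a1 4.23 and 4.01, and that of Atp5g1 2.64 and 2.67 points. With 1 library left out, the direction turned for Cox6a2 (without WH7) and Atp5g3 (without WH8 or WH10), ranging from −0.93 to 1.23 and from −1.58 to 1.39 points. The difference for Cox8b, −1.70 points, ran from −0.26 without WH7 and −0.46 without WH9 to −2.93 without WH10 and −3.13 without WH8, and that for Atp5g2, −1.63 points, from −0.68 without WH7 to −2.58 without WH8. No paired analysis was possible because the labels give no replicate numbers that tie libraries of the groups together. With 2 libraries a group, the permutation tests could not pass 0.05.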
